A study of Mus musculus with 35 samples.

Results

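The data compared here are gene counts from untreated juvenile mouse lungs carrying the day label 5, set against untreated lungs carrying the day label 2. They comprise 12 of the 35 libraries of the series, 6 at day 5 and 6 at day 2, and were chosen by the labels alone. Each day holds 3 KO and 3 control (C) libraries. KO mice have the genotype RORaf/fIl7riCre, in which Cre recombinase is driven from the Il7r locus, a gene of lymphoid cells, so that a loxP-flanked Rora is cut out in the lineages that use Il7r, chiefly lymphoid cells. Control mice have the genotype RORaf/f, with the loxP sites and no Cre in the label, so both genotypes share the floxed Rora and the presence of the Cre cannot be told apart from the loss of Rora. No agent was given to any of these mice. The remaining libraries come from untreated lungs of day 7 and from lungs after naphthalene, a compound that injures airway club cells. The series text gives the age of the mice as 14 days and no separate age for each day label, and the labels do not say what the day counts from in an untreated mouse. RNA was extracted with Trizol from a homogenate of the whole lung, so every cell type of the organ contributes.

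In the young mouse lung, airspaces are divided by septa that grow around elastin and collagen, laid down by myofibroblasts and fibroblasts. Production of these fibres, of the enzymes that modify them and of the cell division machinery is known to decline as the alveoli mature. Heat shock proteins are chaperones whose genes respond within minutes to protein stress through the transcription factor HSF1, and clock genes follow the time of day.

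Library totals ran from 13075398 to 19127690 counts at day 5 and from 10696690 to 19996435 counts at day 2. The lung markers were all abundant. The surfactant gene Sftpc ran from 4847 to 13403 CPM (counts scaled to a common library size with TMM factors) at day 5 and from 5542 to 15544 CPM at day 2. The names of the libraries carry a letter whose meaning the labels do not give. Day 5 holds 4 libraries with the letter f and 2 with o, and day 2 holds 4 with k and 2 with n, so that letter and day cannot be told apart. Each letter is split evenly over the genotypes, and by the transcripts Xist and Ddx3y each day holds 3 female and 3 male lungs, with both n libraries male. Replicate 1 of the day 5 control lungs, a letter o library, held 159 CPM of P2ry12, a receptor of microglia, against at most 3.92 CPM in any other library of the series. Whole-lung Rora did not separate the genotypes, at 40.4 to 53.4 CPM in day 5 KO lungs and 42.8 to 49.7 CPM in day 5 control lungs, and at 35.5 to 63.0 CPM in day 2 KO lungs and 32.1 to 43.2 CPM in day 2 control lungs. Il7r had 4.75 to 5.12 CPM in day 5 KO lungs and 8.85 to 12.2 CPM in day 5 control lungs, without overlap. At day 2 the genotypes overlapped, with 8.50, 5.34 and 4.67 CPM in KO lungs and 2.53, 1.75 and 10.6 CPM in control lungs. The labels do not say whether replicates are separate animals, so p-values measure the spread between these libraries.

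Day 5 lungs had lower mean levels of Wnt5a, Fbn2, Aspn and Thbs2, among other genes, and higher mean levels of heat shock genes, the macrophage gene Chil3 and the membrane protein gene Ms4a4d. None of these differences passed the test on all 12 libraries. With genotype as a covariate, edgeR's quasi-likelihood test called 0 of 18788 genes (0%) at a Benjamini-Hochberg adjusted p under 0.05. The smallest adjusted p was 0.0579, shared by 11 genes, and 16 genes were under 0.1. At an unadjusted p under 0.05 there were 1259 genes (6.7%), 417 higher (2.22%) and 842 lower (4.48%) at day 5. In 77 genes (0.41%) the 6 day 5 values and the 6 day 2 values did not overlap, with 24 higher (0.128%) and 53 lower (0.282%) at day 5.

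The count of calls differed between fits and with single libraries left out. Without replicate 1 of the day 5 control lungs the test called 2 of 19466 genes (0.0103%), Hspa1a and Hspa1b, both higher at day 5. Both letter o libraries, which include the library left out, lay within the day 2 range for these genes. At an unadjusted p under 0.05 there were then 1118 (5.74%), 400 higher (2.05%) and 718 lower (3.69%). Leaving out either letter n library raised the count, to 39 without replicate 3 of the day 2 control lungs and to 52 without replicate 1 of the day 2 KO lungs. A fit of all 35 libraries changed the estimate of the spread, the genes kept and the scaling together. In that fit the same contrast called 98 of 20606 genes (0.476%), 20 higher (0.0971%) and 78 lower (0.379%). Without the library with P2ry12 it called 49 of 20558 (0.238%), 16 higher (0.0778%) and 33 lower (0.161%). DESeq2 on the 12 libraries called 108 genes, 26 higher and 82 lower. Of the 98 genes, 95 were also tested on the 12 libraries, all with the same direction and an unadjusted p under 0.05. The 35-library contrast compares the same 12 libraries, so this follows largely from shared counts and is no separate support. The 24 genes named below, 12 in each direction, were taken in order of p among genes that the 12-library test did not call. Of these, 21 were called with 35 libraries, of which 14 also without the library with P2ry12. DESeq2 on the 12 libraries called all 24, so whether they pass depends on the test used. Without replicate 3 of the day 2 control lungs edgeR called 14 of the 24, and without replicate 1 of the day 2 KO lungs 16. These fits share the same counts and are no separate support.

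The gene with the lowest p among those lower at day 5 was Cyp2e1, a cytochrome P450 known for metabolising ethanol. It had 7.15, 5.77 and 6.34 CPM in day 5 KO lungs and 4.73, 4.36 and 6.99 CPM in day 5 control lungs. At day 2 it had 10.8, 28.9 and 22.4 CPM in KO lungs and 22.2, 29.7 and 9.54 CPM in control lungs. All day 5 values lay below all day 2 values, and the 2 lowest day 2 values were those of the letter n libraries. The log2 change was -1.82 ± 0.28 (SE; adjusted p = 0.0579, not called).

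Among the other named genes with lower means, 5 have known roles in or around the extracellular matrix. Aspn, which encodes the small leucine-rich proteoglycan asporin, had 63.3, 48.2 and 34.4 CPM in day 5 KO lungs and 30.3, 45.5 and 45.3 CPM in day 5 control lungs, against 99.9, 98.5 and 165 CPM in day 2 KO lungs and 70.3, 82.7 and 71.8 CPM in day 2 control lungs. The groups did not overlap, and unlike most genes of this set the letter n libraries (mean 85.8 CPM) lay near the letter k libraries (104 CPM). Its log2 change was -1.12 ± 0.18 (adjusted p = 0.0579, not called). Thbs2, the matricellular protein thrombospondin 2, averaged 7.35 ± 1.64 CPM at day 5 and 20.9 ± 8.83 CPM at day 2 (SD, n = 6 each), without overlap. P4ha3, a catalytic subunit of the prolyl hydroxylase that modifies collagen, averaged 5.26 ± 1.10 CPM at day 5 and 16.1 ± 6.38 CPM at day 2, also without overlap. Fbn2, a fibrillin of developing microfibrils, had 3.65 to 6.97 CPM at day 5 and 6.07 to 18.4 CPM at day 2, with only the lowest day 2 library, a letter n control lung, inside the day 5 range. Prss35, a secreted protein of the serine protease family, averaged 2.93 ± 1.44 CPM at day 5 and 13.9 ± 7.77 CPM at day 2 and overlapped through the same letter n library.

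The remaining 6 named genes with lower means have varied roles. Wnt5a, a Wnt ligand known from lung morphogenesis, had 42.7, 45.1 and 36.7 CPM in day 5 KO lungs and 29.5, 26.5 and 36.5 CPM in day 5 control lungs. At day 2 it had 51.6, 82.9 and 92.3 CPM in KO lungs and 90.1, 100 and 40.2 CPM in control lungs. The 4 letter k libraries were high, and the letter n values of 51.6 and 40.2 CPM lay next to or inside the day 5 range (log2 change -1.10 ± 0.21, adjusted p = 0.105, not called). Trim67, a member of the TRIM family of ubiquitin ligases, had 4.10, 1.80 and 3.56 CPM in day 5 KO lungs and 1.24, 4.78 and 4.05 CPM in day 5 control lungs, against 3.72, 56.0 and 55.3 CPM in day 2 KO lungs and 34.2, 54.0 and 8.92 CPM in day 2 control lungs. This was the most negative log2 change of the named genes, at -3.45 ± 0.58 (adjusted p = 0.0579, not called). The teneurin Tenm4 (-2.09 ± 0.35), the cadherin Cdh4 (-1.25 ± 0.24) and the calmodulin-dependent kinase Camk1g (-1.34 ± 0.22) did not overlap between days. Stfa2, a stefin that inhibits cysteine proteases and is made by neutrophils, had a log2 change of -2.71 ± 0.43. It belongs to a cluster of near-identical paralogs among which reads may be split, so its value is uncertain.

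**Figure D1:**
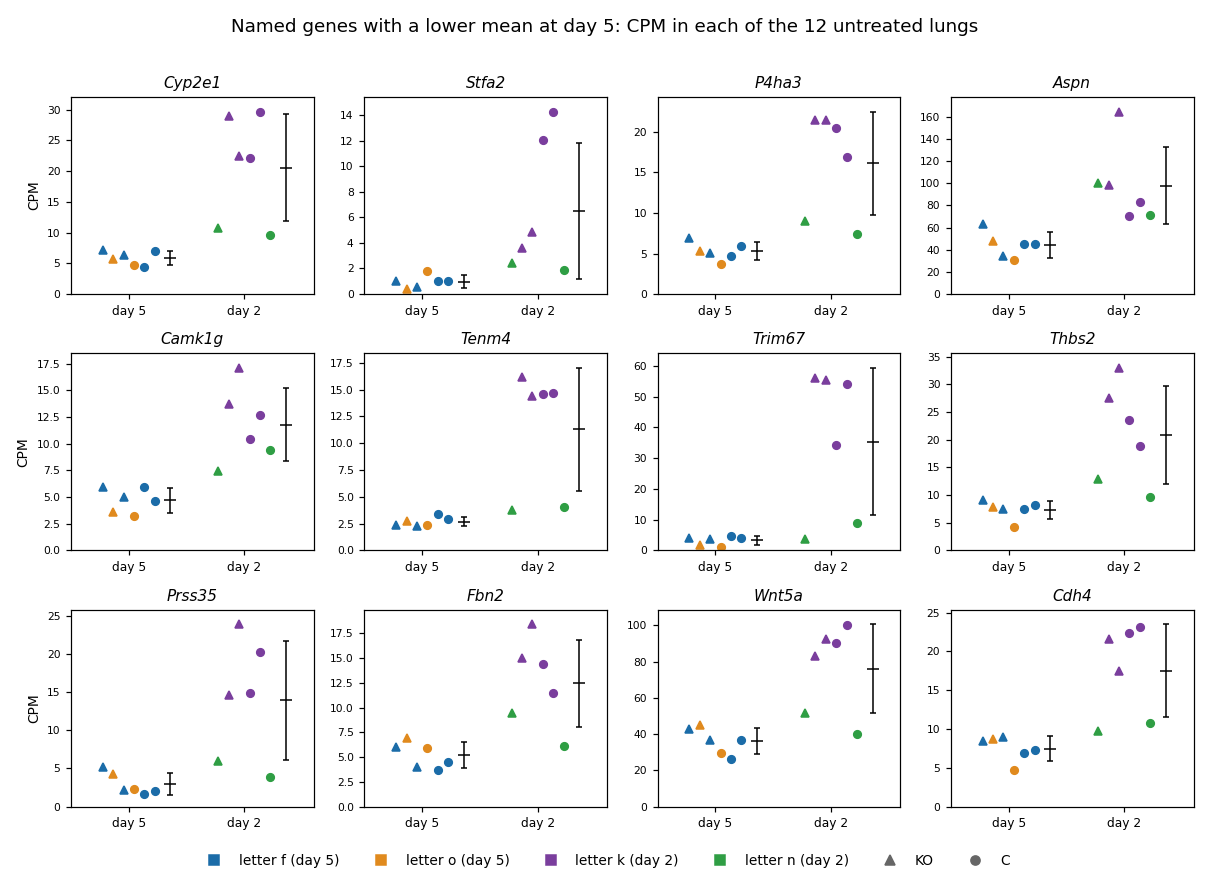
CPM of the 12 named genes with a lower mean at day 5 in each of the 12 libraries, day 5 left and day 2 right, KO as triangles and C as circles, coloured by the letter of the library name. Bars show the mean and SD of 6 libraries. In Trim67 the letter k libraries average 49.9 CPM and the letter n libraries 6.32 CPM, beside 4.12 CPM for f and 1.52 CPM for o.

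The day 2 libraries were not alike in these genes. In all 12 the letter n mean was between the letter k mean and both day 5 letter means, and in Aspn it was nearer to letter k. Between the letters within day 2, n minus k called 256 genes (1.36%), 142 higher (0.756%) and 114 lower (0.607%) in n, on a test whose p covers the spread within letters only. Tgfbi, a secreted matrix protein induced by TGF-beta and a member of the smooth muscle and myofibroblast list, is described here although it is not a named gene. It had 54.1, 49.2 and 44.4 CPM in day 5 KO lungs and 50.2, 49.4 and 49.1 CPM in day 5 control lungs. At day 2 it had 56.1, 166 and 180 CPM in KO lungs and 164, 162 and 54.5 CPM in control lungs. The 4 letter k libraries were high and the letter n libraries were just above the highest day 5 library. Letter f against k had an adjusted p of 3.00e-06 for Tgfbi, and letter f against n an adjusted p of 0.867.

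Across the whole table, letter f against k called 329 genes (1.75%), 115 higher (0.612%) and 214 lower (1.14%) in f, and letter o against k called 945 (5.03%), 447 higher (2.38%) and 498 lower (2.65%) in o. Letter f against n called 7 (0.0373%), 5 higher (0.0266%) and 2 lower (0.0106%) in f, and letter o against n called 0, with 1246 genes at an unadjusted p under 0.05 in the last. The n and o comparisons rest on 2 libraries for each of these letters. These pairwise comparisons were added after the data were seen.

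**Figure D2:**
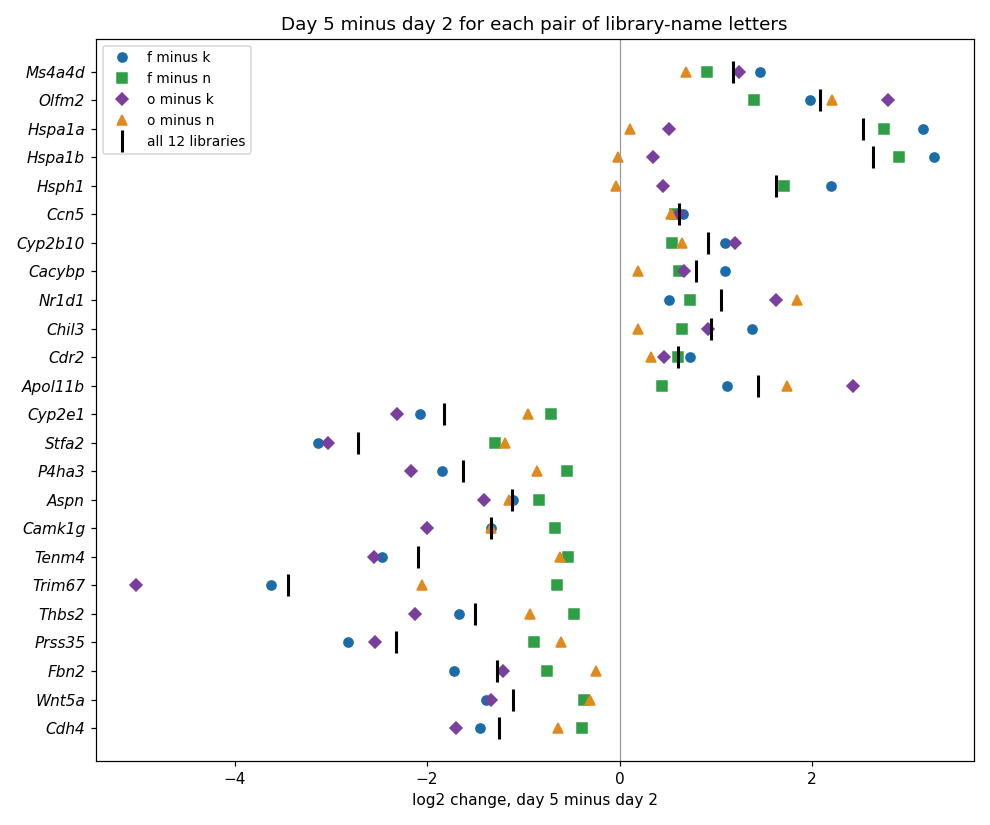
Log2 change, day 5 minus day 2, of the 24 named genes for each pair of a day 5 letter (f, o) with a day 2 letter (k, n), with the value over all 12 libraries as a black bar. In each of the 12 genes lower at day 5, f minus k lies below f minus n and o minus k below o minus n.

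Genes of the collagen and elastic fibres were lower on average at day 5. In bulk tissue, fewer cells of a type and less RNA per cell cannot be told apart. All 14 collagen chain genes had a log2 change below 0, with a median of -0.53 where the median of all genes tested was 0.00 and 49.9% of genes were higher. At an unadjusted p under 0.05 there were 11 lower and 0 higher, and 0 were called on adjusted p. Over all genes tested, 4.48% were lower and 2.22% higher at that threshold, which is the background for each list below. Without replicate 1 of the day 5 control lungs the median was -0.41 and 7 were lower at an unadjusted p under 0.05. Col15a1, a collagen of basement membrane zones, had the smallest p, with 25.5 ± 2.41 CPM at day 5 and 45.9 ± 12.3 CPM at day 2 and no overlap (log2 change -0.86 ± 0.17, adjusted p = 0.119). Col3a1, the fibrillar type III collagen chain, had 2013, 1418 and 1351 CPM in day 5 KO lungs and 930, 1071 and 1608 CPM in day 5 control lungs, against 1829, 2433 and 2686 CPM in day 2 KO lungs and 2448, 3264 and 1059 CPM in day 2 control lungs. The 4 letter k libraries were above every day 5 library, while both letter n values fell inside the day 5 range.

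Of 15 elastic fibre genes, 14 were below 0 with a median of -0.42, and 6 were lower at an unadjusted p under 0.05. Without replicate 1 of the day 5 control lungs these values were -0.36 and 3. Eln, which encodes elastin itself, had 6233, 2926 and 9255 CPM in day 5 KO lungs and 2088, 6116 and 7890 CPM in day 5 control lungs. At day 2 it had 3545, 12901 and 10089 CPM in KO lungs and 13403, 17012 and 4992 CPM in control lungs. Both letter o libraries were lowest at day 5 and both letter n libraries were lowest at day 2 (log2 change -0.84 ± 0.41, adjusted p = 0.751, not called). The microfibril-associated Mfap4 had a log2 change of -0.56 ± 0.29 and the crosslinking enzyme Lox one of 0.04 ± 0.23. Fbln5, a fibulin needed for elastic fibre assembly, averaged 219 ± 46.5 CPM at day 5 and 342 ± 78.0 CPM at day 2 (-0.66 ± 0.18, adjusted p = 0.328).

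The direction of both matrix lists followed the letters compared. For letter f against k the median was -0.65 for collagens and -0.54 for elastic fibre genes, whereas for letter f against n it was 0.12 and 0.25. Letter o was below both, with medians of -1.10 and -0.91 against k and of -0.25 for each list against n.

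Most other mesenchymal genes differed little between the days. Of 12 smooth muscle and myofibroblast genes, 0 were higher and 3 lower at an unadjusted p under 0.05, and these were Tgfbi, Hhip and Aspn (median -0.05). The contractile actin Acta2 averaged 190 ± 32.02 CPM at day 5 and 204 ± 16.3 CPM at day 2, and the receptor Pdgfra, a marker of alveolar myofibroblast precursors, averaged 274 ± 84.9 CPM at day 5 and 256 ± 60.4 CPM at day 2. Among 13 fibroblast markers, 1 was higher at an unadjusted p under 0.05. That gene, the methyltransferase Inmt, averaged 1710 ± 282 CPM at day 5 and 1111 ± 237 CPM at day 2 (0.60 ± 0.16, adjusted p = 0.305). Ccn5, a matricellular protein of the CCN family and 1 of the named genes, had a higher mean at day 5, unlike the collagens. It had 24.8 to 31.3 CPM at day 5 and 14.5 to 22.3 CPM at day 2 without overlap (0.61 ± 0.13, adjusted p = 0.15, not called).

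Cell cycle transcripts were lower on average at day 5. Of 26 genes, 23 had a log2 change below 0, with a median of -0.44 over all 12 libraries and -0.53 without replicate 1 of the day 5 control lungs. At an unadjusted p under 0.05 (4.48% lower and 2.22% higher over all genes) there were 11 lower and 0 higher, and 0 were called. These included Cdc20, an activator of the anaphase-promoting complex (4.46 ± 1.58 CPM at day 5 and 8.83 ± 3.62 CPM at day 2), Top2a, a topoisomerase of dividing cells (-0.58 ± 0.21), and Ccnb1, the cyclin that drives entry into mitosis, at 2.09 ± 0.73 CPM at day 5 and 4.32 ± 1.61 CPM at day 2 (-1.07 ± 0.29, adjusted p = 0.305). The replication genes Mcm3 (-0.10 ± 0.17) and Pcna (-0.07 ± 0.12) were the most abundant members at day 2 and differed by less than their spread. Mki67, a widely used marker of dividing cells, did not go with the list. It had 6.90 to 24.3 CPM at day 5 and 8.61 to 14.3 CPM at day 2. The summed level of the list was 228 CPM in f, 298 CPM in o, 331 CPM in k and 256 CPM in n. Its median was -0.77 for letter f against k, -0.16 for f against n and -0.42 for o against k, but 0.19 for o against n.

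Imprinted growth genes were mostly a little lower, and genes of the IGF axis were less uniform. Of 13 imprinted genes tested, 4 were lower and 0 higher at an unadjusted p under 0.05 (median -0.14). Of 11 IGF axis genes, 7 were below 0 and 4 above (median -0.12), with 2 lower and 0 higher at an unadjusted p under 0.05. The IGF axis median was -0.12 for letter f against k and -0.53 for o against k. It was 0.08 for f against n and 0.05 for o against n. The largest difference among the imprinted genes was in H19, a noncoding RNA that is abundant before birth. It had 10.2 ± 4.32 CPM at day 5 and 25.03 ± 12.4 CPM at day 2 (-1.33 ± 0.34, adjusted p = 0.263). With 35 libraries its adjusted p was 0.0152, and 0.0558 without the library with P2ry12, which ends the call. Igfbp5, an IGF-binding protein with the most negative change of the IGF axis list, averaged 222 ± 37.2 CPM at day 5 and 364 ± 101 CPM at day 2 (-0.73 ± 0.19, adjusted p = 0.286). With 35 libraries its adjusted p was 0.0327, and 0.112 without that library, which ends the call. For both genes the letter n mean lay next to the letter f mean, with 12.02 CPM in f and 12.6 CPM in n for H19, and 232 CPM in f and 243 CPM in n for Igfbp5. Mest, an imprinted gene of growing tissues, averaged 24.7 ± 14.9 CPM at day 5 and 46.3 ± 20.98 CPM at day 2 (-0.98 ± 0.43, adjusted p = 0.722). On a separate list of fetal growth regulators, 7 of 9 genes tested were below 0 (median -0.18). Its member Sox4, a transcription factor, averaged 119 ± 24.4 CPM at day 5 and 175 ± 34.9 CPM at day 2 (-0.58 ± 0.16, adjusted p = 0.328).

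The heat shock genes Hspa1b and Hspa1a had the highest positive log2 changes of the named genes. Hspa1b and Hspa1a encode the inducible Hsp70 chaperone, and Hsph1 encodes Hsp110, which recharges Hsp70. Hspa1b had 63.5, 12.3 and 99.8 CPM in day 5 KO lungs and 14.1, 119 and 121 CPM in day 5 control lungs. At day 2 it had 10.2, 9.80 and 11.2 CPM in KO lungs and 7.64, 12.2 and 16.8 CPM in control lungs. The 4 letter f libraries were high, while both letter o libraries lay within the range of day 2. The log2 change was 2.64 ± 0.49 (adjusted p = 0.0978, not called), and 2.85 without replicate 1 of the day 5 control lungs (adjusted p = 0.022, called).

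The neighbouring copy Hspa1a had 41.4, 9.61 and 64.0 CPM in day 5 KO lungs and 9.96, 65.1 and 77.5 CPM in day 5 control lungs, against 5.36 to 11.6 CPM at day 2. Its log2 change was 2.53 ± 0.46 (adjusted p = 0.0787, not called). Reads of these near-identical copies may be split between them, so their separate levels are uncertain. Hsph1 had 150, 47.7 and 126 CPM in day 5 KO lungs and 54.0, 241 and 171 CPM in day 5 control lungs, against 31.1 to 53.8 CPM at day 2 (1.62 ± 0.33, adjusted p = 0.133, not called). Again the 2 low day 5 libraries were those of letter o. Within day 5, letter f against o had a log2 change of 2.91 for Hspa1b (adjusted p = 0.000326) and of 1.74 for Hsph1 (adjusted p = 0.00677), with p covering the spread within letters only.

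The windows around the start sites of the 3 genes are shown because their transcripts moved together from library to library. They are RefSeq promoter windows of the build GRCm38.p6, 250 bases before to 50 after the start, written in the direction of the gene. Capitals mark matches to GAANNTTC, the paired inverted repeat of the heat shock element, or to the longer form in which that motif is followed by NNGAA, on either strand, so that the short motif lies within the long one. Hspa1a is at chr17:34972107-34972406 on the minus strand, Hspa1b at chr17:34959189-34959488 on the minus strand and Hsph1 at chr5:149636266-149636565 on the minus strand.
Hspa1a: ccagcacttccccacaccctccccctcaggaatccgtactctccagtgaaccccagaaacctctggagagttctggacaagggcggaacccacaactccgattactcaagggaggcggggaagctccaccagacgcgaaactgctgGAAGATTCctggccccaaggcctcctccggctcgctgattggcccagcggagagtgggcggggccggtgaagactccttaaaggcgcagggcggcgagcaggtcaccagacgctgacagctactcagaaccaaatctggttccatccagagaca
Hspa1b: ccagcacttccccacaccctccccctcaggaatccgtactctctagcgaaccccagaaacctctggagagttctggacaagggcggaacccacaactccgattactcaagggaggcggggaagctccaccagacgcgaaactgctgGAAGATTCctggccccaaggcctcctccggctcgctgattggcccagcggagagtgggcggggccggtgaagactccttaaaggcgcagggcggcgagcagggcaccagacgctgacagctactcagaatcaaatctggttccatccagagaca
Hsph1: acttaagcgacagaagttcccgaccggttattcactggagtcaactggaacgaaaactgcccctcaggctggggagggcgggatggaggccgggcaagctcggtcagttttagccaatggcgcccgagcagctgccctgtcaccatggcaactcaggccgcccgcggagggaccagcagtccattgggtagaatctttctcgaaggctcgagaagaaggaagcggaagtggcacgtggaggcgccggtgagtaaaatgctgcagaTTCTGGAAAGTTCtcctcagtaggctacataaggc
The windows of Hspa1a and Hspa1b differ at 4 of 300 bases, and both hold the short motif once. The window of Hsph1 shown holds the longer motif on the opposite strand, as does an overlapping RefSeq window of this gene that is not shown. Of 32851 mouse promoter windows, 7.86% hold the short motif and 0.603% the longer one. Of the 7 heat shock list genes 5 have a window, 4 of these with the short motif and 1 with the longer. A match describes letters and is no evidence of a bound factor.

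All 7 genes of the heat shock list had a log2 change above 0 (median 0.84, and 0.91 without replicate 1 of the day 5 control lungs). At an unadjusted p under 0.05 there were 6 higher, and 4 were called with 35 libraries. Dnajb1, a co-chaperone of Hsp70, averaged 92.4 ± 37.6 CPM at day 5 and 55.0 ± 9.28 CPM at day 2, and its letter o mean of 48.6 CPM was below the letter k mean of 56.8 CPM. Hsp90aa1, the inducible Hsp90, averaged 138 ± 41.7 CPM at day 5 and 77.8 ± 27.4 CPM at day 2 (0.84 ± 0.22, adjusted p = 0.304, and 0.0229 with 35 libraries). The constitutive Hspa8, the most abundant member, averaged 727 ± 264 CPM at day 5 and 519 ± 99.6 CPM at day 2 (0.48 ± 0.23, adjusted p = 0.747). The median of the list was 1.30 for letter f against k and 1.15 for f against n, but 0.35 for o against k and -0.04 for o against n. Cacybp, which encodes the calcyclin-binding protein, had 39.9 to 57.8 CPM at day 5 and 19.7 to 41.7 CPM at day 2, with the letter n KO lung as the only day 2 library inside the day 5 range (0.79 ± 0.18, adjusted p = 0.185, not called).

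**Figure D3:**
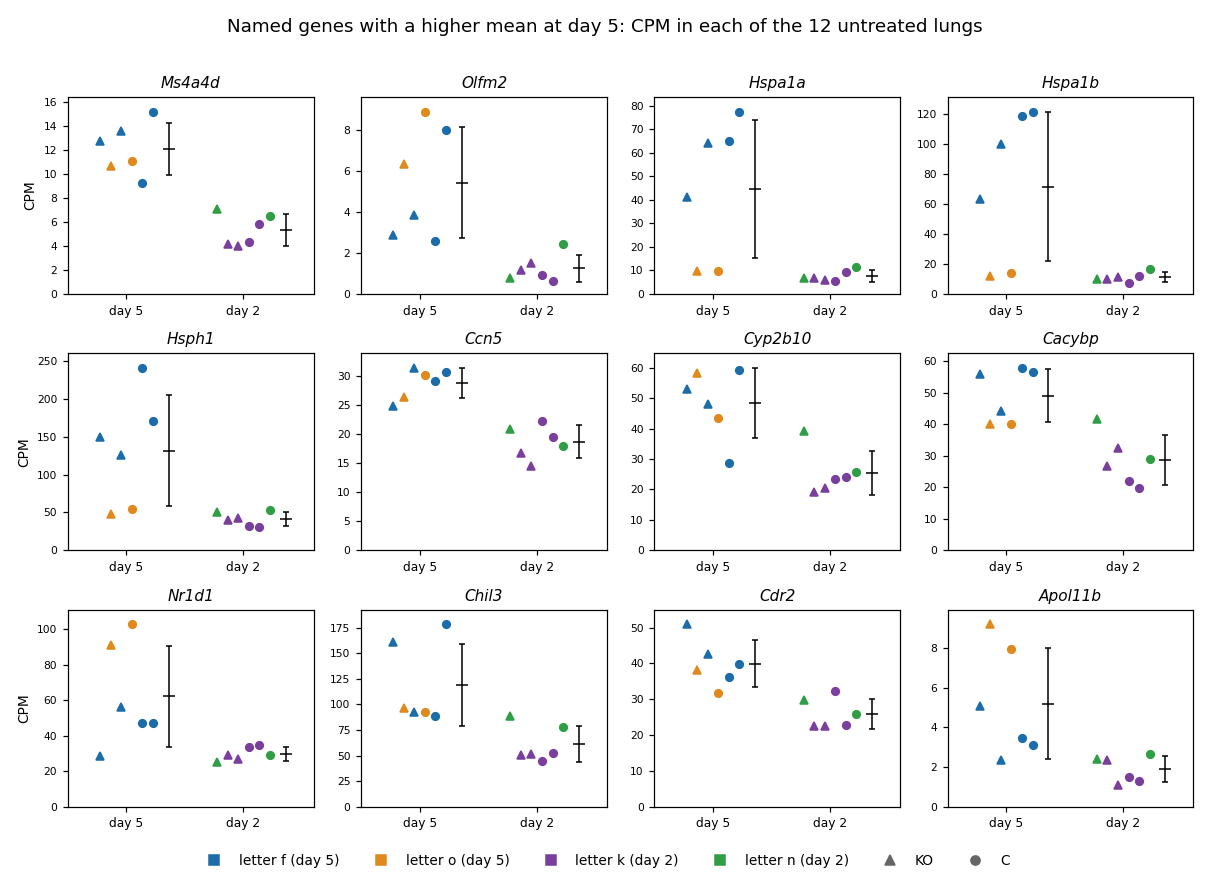
CPM of the 12 named genes with a higher mean at day 5, drawn as in the plot of the lower genes. In Hspa1a, Hspa1b and Hsph1 the 2 letter o libraries lie at the level of day 2, whereas in Nr1d1 and Apol11b they are the highest of all.

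Ms4a4d and Chil3 had higher means in both day 5 letters than in either day 2 letter. This was not particular to them, since all other named genes with higher means except Hspa1b and Hsph1 did so too. Ms4a4d, a member of the MS4A family of membrane proteins, had 12.7, 10.7 and 13.6 CPM in day 5 KO lungs and 11.1, 9.28 and 15.2 CPM in day 5 control lungs. At day 2 it had 7.08, 4.19 and 4.01 CPM in KO lungs and 4.33, 5.82 and 6.48 CPM in control lungs. The groups did not overlap (1.18 ± 0.19, adjusted p = 0.0579, not called). Chil3, the chitinase-like protein of alveolar macrophages, had 93.0 to 161 CPM in day 5 KO lungs and 89.1 to 178 CPM in day 5 control lungs, against 50.5 to 88.4 CPM in day 2 KO lungs and 44.6 to 78.1 CPM in day 2 control lungs. The lowest day 5 value was just above the highest day 2 value (0.95 ± 0.22, adjusted p = 0.202, not called, also with 35 libraries). Of the 15 alveolar macrophage markers it was the only one higher at an unadjusted p under 0.05, and 10 were below 0 (median -0.06).

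Other named genes with a higher mean at day 5 have less closely related roles. Olfm2, an olfactomedin-domain protein, had 2.60 to 8.87 CPM at day 5 and 0.640 to 2.44 CPM at day 2 without overlap (2.08 ± 0.37, adjusted p = 0.0724). Cyp2b10, a cytochrome P450 of foreign compound metabolism, had 28.7 to 59.4 CPM at day 5 and 19.2 to 39.3 CPM at day 2 (0.92 ± 0.20, adjusted p = 0.15). Cdr2, a coiled-coil protein known as an antigen in cerebellar degeneration, had 31.7 to 50.9 CPM at day 5 and 22.4 to 32.3 CPM at day 2 (0.60 ± 0.14, adjusted p = 0.202). Apol11b, of the apolipoprotein L family, averaged 8.56 CPM in letter o and 3.49 CPM in letter f, against 1.56 CPM in k and 2.52 CPM in n (1.44 ± 0.35, adjusted p = 0.227).

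Nr1d1, the clock repressor REV-ERB alpha, had 28.6, 90.9 and 56.3 CPM in day 5 KO lungs and 103, 47.1 and 47.1 CPM in day 5 control lungs, against 24.9, 29.3 and 26.6 CPM in day 2 KO lungs and 33.6, 34.8 and 28.9 CPM in day 2 control lungs. The letter o libraries were highest and 1 letter f library lay inside the day 2 range (1.06 ± 0.25, adjusted p = 0.202, not called). Other clock genes separated the same letter within day 5. Dbp, an output gene of the clock, averaged 72.8 CPM in o and 12.02 CPM in f, and Bmal1, the clock activator, averaged 4.72 CPM in o and 25.5 CPM in f, beside 19.3 and 17.9 CPM in letter k. Between the days the log2 change was 0.64 ± 0.49 for Dbp (adjusted p = 0.803) and 0.21 ± 0.40 for Bmal1 (adjusted p = 0.905), neither called. Of 17 clock genes 2 were higher and 2 lower at an unadjusted p under 0.05, with a median of 0.08.

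Club cell genes were higher on average at day 5, and goblet and secretory genes were not. Of 14 club cell genes, 12 were above 0 with a median of 0.31 (0.33 without replicate 1 of the day 5 control lungs). At an unadjusted p under 0.05, 4 were higher and 0 lower, beside 2.22% and 4.48% over all genes. Scgb1a1, the main secretoglobin of club cells, had 7688, 8388 and 9112 CPM in day 5 KO lungs and 9134, 6745 and 10212 CPM in day 5 control lungs, against 5199, 5846 and 8639 CPM in day 2 KO lungs and 6863, 7560 and 6124 CPM in day 2 control lungs. The groups overlapped (0.34 ± 0.18, adjusted p = 0.764, not called). The carbonyl reductase Cbr2, the second most abundant member, averaged 1908 ± 280 CPM at day 5 and 1705 ± 192 CPM at day 2. The club cell median was 0.43 for letter f against k and 0.39 for f against n, but 0.11 for o against k and 0.04 for o against n. Of 10 goblet and secretory genes 8 were below 0, with a median of -0.35 (-0.32 without replicate 1 of the day 5 control lungs). At an unadjusted p under 0.05, 1 was higher and 1 lower, and 1 and 0 without that library. The goblet median was -0.48 for letter f against k but 0.57 for f against n. It was -1.12 for o against k and 0.03 for o against n. Bpifa1, a secreted airway defence protein on that list, went against its median, at 7.95 ± 6.21 CPM at day 5 and 2.38 ± 1.18 CPM at day 2 (1.74 ± 0.52, adjusted p = 0.387). Of 16 ciliated cell genes 14 were above 0 (median 0.16), and only the axonemal dynein Dnah5 was higher at an unadjusted p under 0.05 (0.67 ± 0.28).

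The alveolar lists held no gene at an unadjusted p under 0.05. Among 14 alveolar type 2 genes the median was -0.23, and Sftpc averaged 9434 ± 3320 CPM at day 5 and 11322 ± 3536 CPM at day 2 (-0.29 ± 0.28, adjusted p = 0.84). Among 12 alveolar type 1 genes the median was -0.21, and the receptor Ager averaged 1778 ± 399 CPM at day 5 and 2206 ± 641 CPM at day 2. The 16 endothelial genes had a median of -0.03, and 1 of them, the apelin receptor Aplnr, was lower at an unadjusted p under 0.05 (-0.58 ± 0.18, adjusted p = 0.426). By letter, Sftpc averaged 10246 CPM in f and 7811 CPM in o, against 13315 CPM in k and 7336 CPM in n.

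T cell markers were a little higher on average at day 5, and B cell markers were not. Of 19 T cell genes 17 were above 0 (median 0.27, and 0.29 without replicate 1 of the day 5 control lungs). At an unadjusted p under 0.05, 6 were higher and 0 lower, beside 2.22% and 4.48% over all genes. These included Cd3g, a subunit of the T cell receptor complex, at 9.71 ± 2.95 CPM at day 5 and 6.30 ± 2.19 CPM at day 2 (0.61 ± 0.24), and the receptor constant region Trbc1 at 13.9 ± 4.04 CPM at day 5 and 8.51 ± 2.34 CPM at day 2 (0.70 ± 0.22, adjusted p = 0.438). The summed level of the list was 231 CPM in f, 270 CPM in o, 199 CPM in k and 231 CPM in n, so that f and n had the same sum to 3 digits. Of 15 B cell genes 8 were above 0 and 7 below, with a median of 0.02. Without replicate 1 of the day 5 control lungs the B cell median was -0.21, with 0 higher and 5 lower at an unadjusted p under 0.05. The 6 plasma cell genes tested had a median of -0.02. Of 12 NK cell genes (median 0.41, and 0.19 without the library with P2ry12), 1 was higher at an unadjusted p under 0.05, the receptor subunit Klrd1 (0.75 ± 0.23). Among 10 ILC2 genes tested the median was 0.30 and 0.19 without the library with P2ry12, and only Gata3, a transcription factor that ILC2s share with T cells, was higher at an unadjusted p under 0.05 (0.57 ± 0.25, adjusted p = 0.728). Without that library 0 ILC2 genes were, and Gata3 had its highest value, 22.7 CPM, in it. The cytokine genes Il5 and Il13 were too low to test. The ILC2 median was 0.44 for letter f against k and 0.81 for o against k, but -0.24 for f against n and -0.04 for o against n. The dendritic cell list summed to 146 CPM in f, 166 CPM in o, 111 CPM in k and 149 CPM in n. Of 8 dendritic cell genes 4 were higher at an unadjusted p under 0.05, and 2 without the library with P2ry12. Those lost were Ccr7, a chemokine receptor, and Siglech, a receptor that is also on the microglia list. Of 27 interferon-stimulated genes 25 were above 0 (median 0.19), but only Rsad2 was higher at an unadjusted p under 0.05, with its highest value, 40.9 CPM, in that same library, and 0 were without it.

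Genes of fatty acid and cholesterol synthesis had a median above 0 over the 12 libraries, though not for every pair of letters. Of 21 tested, 14 were above 0 with a median of 0.23 (0.13 without replicate 1 of the day 5 control lungs), and 4 were higher and 0 lower at an unadjusted p under 0.05, against 2 higher without that library. The median was -0.01 for letter f against k, and the median summed level was 1741 CPM at day 5 and 1844 CPM at day 2. Cyp51, a demethylase of the cholesterol pathway, had the smallest p, at 26.1 ± 4.69 CPM at day 5 and 17.3 ± 3.72 CPM at day 2 (0.60 ± 0.16, adjusted p = 0.305). Msmo1, which acts after it, averaged 64.3 CPM in o and 36.0 CPM in f, against 24.2 CPM in k and 36.6 CPM in n.

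Red blood cell genes were above 0 in all 11 members (median 0.63, and 0.49 without replicate 1 of the day 5 control lungs), with 5 higher at an unadjusted p under 0.05, and 3 without that library. The summed level ran from 4052 to 14550 CPM at day 5 and from 3114 to 5265 CPM at day 2. It was 11915 CPM in letter o, 5605 CPM in f, 4472 CPM in k and 3880 CPM in n. The globin gene Hba-a1 averaged 2228 ± 1410 CPM at day 5 and 1140 ± 341 CPM at day 2 (0.93 ± 0.33, adjusted p = 0.538). The amount of blood left in each lung was not measured, and its part in other results was not tested.

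The microglia list had the highest median of the lists, 1.29, and this rested on 1 library. Its median was -0.21 without replicate 1 of the day 5 control lungs. The complement gene C1qa had 288 CPM there and 19.2 to 57.9 CPM in the other 11 libraries. Tmem119, another microglia marker, did not follow it, at 114 CPM in that library and 76.4 to 226 CPM in the others. The neuron gene Snap25 was at 0.364 CPM and the astrocyte gene Gfap at 0.291 CPM in it. The monocyte and interstitial macrophage median was 0.33 with it and -0.17 without it.

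**Figure D4:**
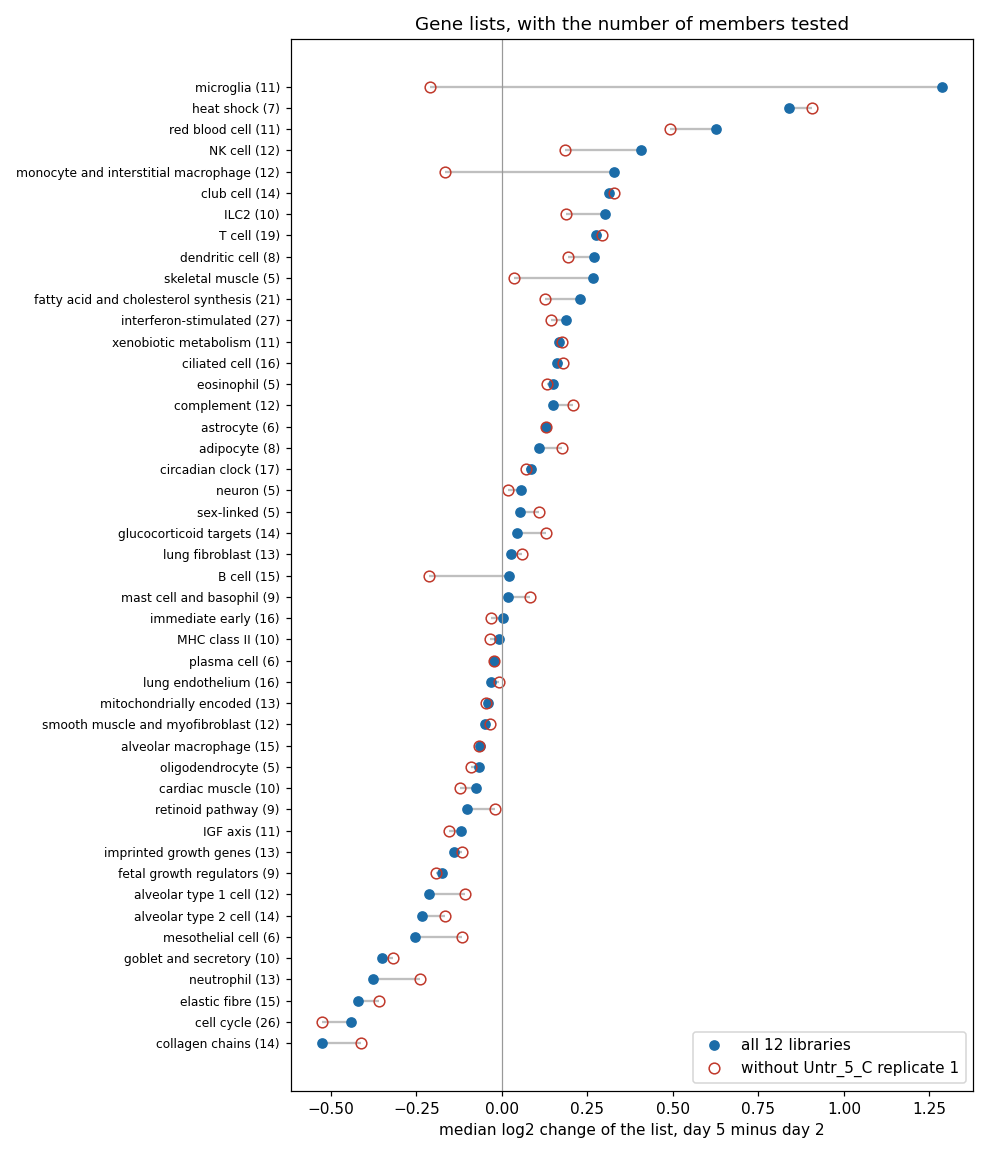
Median log2 change, day 5 minus day 2, of each gene list with at least 5 members tested, over all 12 libraries (filled) and without replicate 1 of the day 5 control lungs (open). Collagen, cell cycle and elastic fibre genes are lowest and heat shock genes high in both, while the microglia median of 1.29 is -0.21 without that library.

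**Figure D5:**
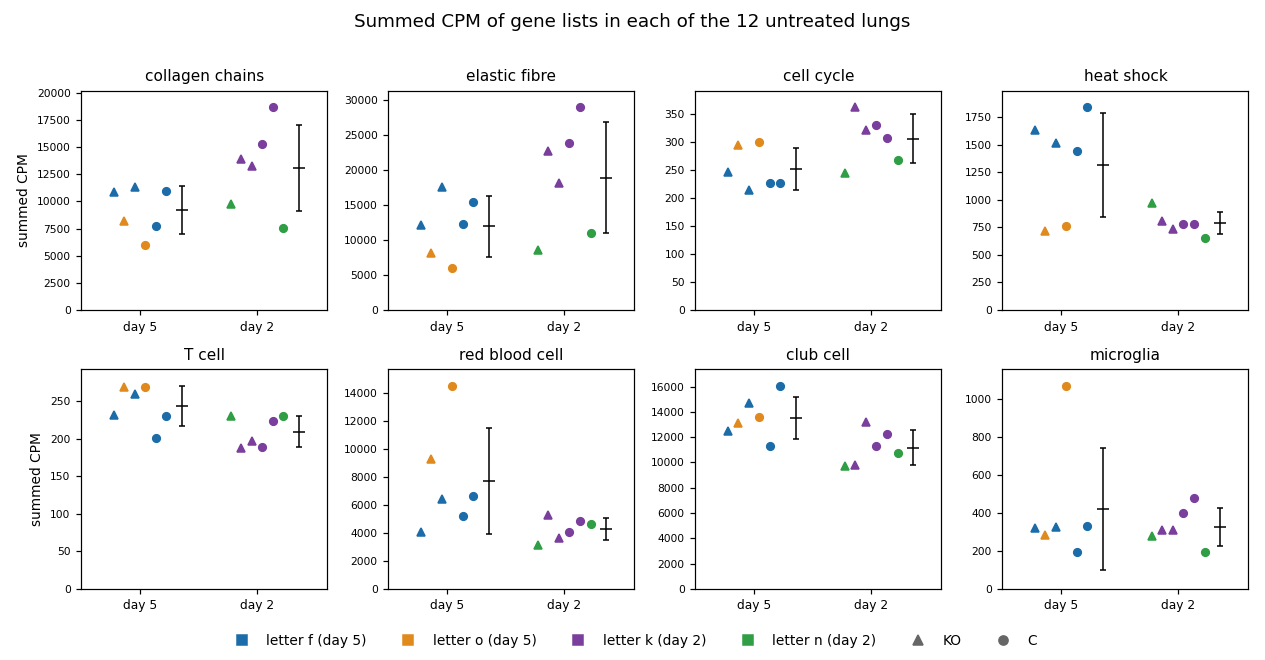
Summed CPM of 8 gene lists in each library, day 5 left and day 2 right, KO as triangles and C as circles, coloured by library-name letter, with mean and SD of 6 libraries. The collagen sums run from 5949 to 11352 CPM at day 5 and from 7516 to 18709 CPM at day 2, and the letter n libraries fall inside the day 5 range.

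The genotypes were compared in their change between the days. In KO lungs 0 genes were called, with 402 at an unadjusted p under 0.05 (2.14%), 165 higher (0.878%) and 237 lower (1.26%) at day 5. In control lungs 0 genes were called, with 1562 at an unadjusted p under 0.05 (8.31%), 586 higher (3.12%) and 976 lower (5.19%). For the difference between genotypes, KO minus control, 0 genes were called, with 468 at an unadjusted p under 0.05 (2.49%), 298 above 0 (1.59%) and 170 below (0.905%). DESeq2 called 0 genes in KO lungs, 17 in control lungs and 0 for the difference. Without replicate 3 of the day 2 control lungs, the control comparison called 86. The named genes had the same sign in both genotypes, as the choice of genes over both favours. Wnt5a had a log2 change of -0.88 ± 0.30 in KO lungs and -1.32 ± 0.30 in control lungs, and Hspa1a one of 2.54 ± 0.67 in KO lungs and 2.53 ± 0.66 in control lungs, none of them called. The median of the collagen list was -0.30 in KO lungs and -0.85 in control lungs, and that of the interferon-stimulated list was -0.12 in KO lungs and 0.42 in control lungs. The difference between genotypes in these medians was not tested, and these are 2 of 51 lists. All control values here include the library with P2ry12. It had the lowest collagen sum of the 12 libraries, 5949 CPM. Its interferon-stimulated sum was 1034 CPM, below only the 1251 CPM of replicate 2 of the day 5 control lungs.

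Untreated lungs of day 7, 6 libraries with the letter p, were not part of the test and place these levels in a longer series. Several genes lower at day 5 were near that level at day 7 too, with Trim67 at 35.4 ± 23.97 CPM at day 2, 3.25 ± 1.41 CPM at day 5 and 3.69 ± 2.09 CPM at day 7, and Wnt5a at 76.2 ± 24.4, 36.2 ± 7.23 and 44.6 ± 10.4 CPM in the same order. Aspn was more spread, at 97.9 ± 35.01, 44.5 ± 11.6 and 66.2 ± 42.3 CPM. Hspa1b was highest at day 5, at 11.3 ± 3.09, 71.6 ± 49.8 and 20.2 ± 2.77 CPM. Other genes had their highest mean at day 7, among them Chil3 at 61.0 ± 17.7, 119 ± 40.2 and 196 ± 45.1 CPM, Ms4a4d at 5.32 ± 1.32, 12.1 ± 2.15 and 16.2 ± 3.71 CPM, and Nr1d1 at 29.7 ± 3.89, 62.1 ± 28.6 and 141 ± 54.3 CPM. These are means ± SD of 6 libraries a day, with no test.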

How the data were processed

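Whole-lung RNA from 12 untreated libraries was analysed from the deposited table of counts per gene, which holds whole-number, unnormalised counts for 57186 genes. The submitters' processing notes name GRCm39 and DESeq2 without their role, with aligner and counter not given in the sources used here. Genes were kept with filterByExpr on the 4 groups, and 18788 were tested of 36117 with a read. R 4.3.3 with edgeR 4.0.16 (TMM, robust quasi-likelihood F-test, two-sided, design genotype plus day, 9 residual degrees of freedom), limma 3.58.1 and DESeq2 1.42.0 were used, with Benjamini-Hochberg adjustment over all genes tested and a threshold of 0.05. Log2 changes are day 5 minus day 2. Displayed CPM use TMM factors of all 35 libraries. Changes per genotype and the genotype difference are contrasts of 4 group means.

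The members, the 51 gene lists with 618 entries and the alternatives were chosen with earlier results of these data known. Named genes follow a rule: up to 12 per direction with a mean of at least 5 CPM on 1 day and a symbol that is no gene model, pseudogene or receptor segment, called genes first by size, and, since none was called, by smallest p. For lists described, the members with the smallest p and the highest levels are named. Other genes named (Tgfbi, Fbln5, H19, Sox4, Dbp, Bmal1, Dnajb1, Cd3g, Siglech and C1qa among them) were chosen after their values were seen. Lists are described by counts and medians, with no set test. Alternatives were leaving out each library, 35 or 34 libraries, DESeq2, other size factors and scaling, other filters, a replicate block, the library-name letter, sex and no robust estimation. Depth was 10696690 to 19996435 counts per library. Promoter sequences are from RefSeq (GRCm38.p6), and no other coordinates are given because the counts were made on another build.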

Additional observations from a re-analysis of the deposited data

Results flagged for a closer look

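The 24 named genes gave 48 groups of 6 libraries, and in 3 of them 1 library lay far from the rest, with a gap to its nearest neighbour of over 0.625 of the group's range. Chance flags about 1 in 20 groups, so this number is near what it gives. Cyp2b10 was at 39.3 CPM in replicate 1 of the day 2 KO lungs, a letter n library, with the next value at 25.8 CPM (gap 0.672 of the range). Aspn was at 165 CPM in replicate 3 of the day 2 KO lungs, with the next at 99.9 CPM (gap 0.686). Thbs2 was at 4.22 CPM in replicate 1 of the day 5 control lungs, the library with P2ry12, with the nearest at 7.45 CPM (gap 0.67). No named gene was flagged for a difference between the genotypes.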

How the results depend on the processing

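Over both genotypes, 0 genes were called on the 12 libraries. The counts were 98 with all 35 libraries, 49 with 34, 108 with DESeq2, 82 with no filter on low counts, 50 with the library-name letter nested in day and 13 with sex as a covariate. They were 329 for letters f minus k, 7 for f minus n and 945 for o minus k. The letter pairs, the 34 libraries and sex were chosen after seeing the data. Leaving out 1 library gave 0 to 52 genes, with 2 without replicate 1 of the day 5 control lungs, 39 without replicate 3 of the day 2 control lungs and 52 without replicate 1 of the day 2 KO lungs. Other size factors, other scaling, a filter at 1 CPM, no robust estimation and o minus n gave 0. In control lungs the counts were 16 with 35 libraries, 17 with DESeq2, 438 with no filter and 0 to 86 leaving out 1 library (86 without replicate 3 of the day 2 control lungs). With no filter they were 55 in KO lungs and 65 for the genotype difference. The causes were not tested. With a replicate block 0 genes were called in each of the 4 comparisons, and for day 5 minus day 2, both genotypes, 1082 had an unadjusted p under 0.05. The deviations of same-numbered libraries from their group means had correlations of -0.64 to 0.397. Pairs with unlike numbers were not compared, so this cannot decide whether the numbers pair libraries. Of the values of the named genes under the alternatives, 468 kept direction and side of the threshold, 178 were called in addition and 2 reversed, both for letters o minus n, with Hspa1b at -0.0127 and Hsph1 at -0.0378. Of list medians 1275 kept within their spread and 74 moved beyond it. Genes under a few CPM have few reads, which limits what could be detected.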
